A study of Egretta garzetta and Nycticorax nycticorax with 12 samples.

Results

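Olfactory epithelium (OE) from 3 adult *N. nycticorax*, the black-crowned night heron, was compared with OE from 3 adult *E. garzetta*, the little egret, over 241 genes that could be followed in both species. The genes were those whose symbol stands in the study's supplementary table of vision-related genes beside an identifier of each species, where both identifiers occur in the expression files. The table held 299 symbols, 245 had an identifier in the files of both species, and 4 of them (*GUCA1C*, *PRPH2*, *ROM1* and *SAG*) repeated an identifier already used and were left out. These genes are a small portion of the 13361 genes in the *N. nycticorax* files and the 16585 in the *E. garzetta* files, and they had been listed by the study for their part in vision, not for any part in smell. The series holds 12 birds, each sequenced once from total RNA as 150 bp read pairs, and the 6 adults used here are numbered 4 to 6 in each species. All were wild birds caught around the same city, recognised as adults by their breeding plumage, with no treatment and with no genotype, sex or age in years given in the sample labels. Adults were taken at a location other than that of the 6 nestlings (birds 1 to 3 of each species), and no date or batch of RNA extraction or sequencing is given in the sources used here. Each species was mapped to its own genome and its own gene models, so that a difference between species and a difference between the gene models cannot be told apart.

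The OE is the sheet of nasal tissue in which olfactory neurons sit among supporting cells, over basal cells that renew them, with glands, vessels and connective tissue beneath. Olfactory neurons and photoreceptors are both ciliated sensory neurons, and their cilia are built by the same transport machinery. They differ in the cascade that the cilium carries: photoreceptors use opsins, transducin, phosphodiesterase and cyclic-nucleotide-gated channels, while olfactory neurons use odorant receptors, an adenylyl cyclase and channels of the same family. Many other genes in a list made for vision serve development, adhesion or housekeeping in many epithelia, and are read here as genes of the OE.

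Between 10694459 and 12612651 read equivalents (coverage times coding length divided by read length) lay on annotated transcripts in each adult, of which 216781 to 565230 lay on the 241 genes. Of these genes, 206 were above 0 in all 6 adults, 139 averaged 10 TPM or more in both species (TPM, transcripts per 1000000 transcripts), 39 had a mean under 1 TPM in both, and 4 (*CNGA1*, *GNAT1*, *PDC* and *RORB*) were listed at 0 in every adult. The 5 most abundant were *COL1A1*, *AQP1*, *RPL24*, *VIM* and *AQP5* in *N. nycticorax* and *COL1A1*, *RPL24*, *AQP1*, *VIM* and *LUM* in *E. garzetta* by the mean of deposited values. *COL1A1*, which encodes a chain of type I collagen, was the most abundant of the genes in each of the 6 birds. It had 4599.8, 12393 and 4004 TPM in adults 4, 5 and 6 of *N. nycticorax* and 32674, 67385 and 9708 TPM in adults 4, 5 and 6 of *E. garzetta*. It made up 23.7 to 47.4% of the summed TPM of the 241 genes in *N. nycticorax* and 42.6 to 82.4% in *E. garzetta*, and its model spans 870 coding bp in the former and 360 in the latter. Without it the sums were close, from 12014 to 13778 TPM in *N. nycticorax* and from 13061 to 14682 TPM in *E. garzetta*. The rescaling of the 241 genes to a common sum, which was the scale chosen for the comparison, therefore moved all other genes largely by what *COL1A1* did, and the median log2 fold change over the tested genes was 1.36 (*N. nycticorax* over *E. garzetta*, as throughout). The same fit was run after scaling by the median ratio of each bird to the geometric mean of the adults, in which a few abundant genes carry no weight, and there the median was -0.03. Both are given below, and a direction is stated without qualification only where both had it.

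**Figure D1:**
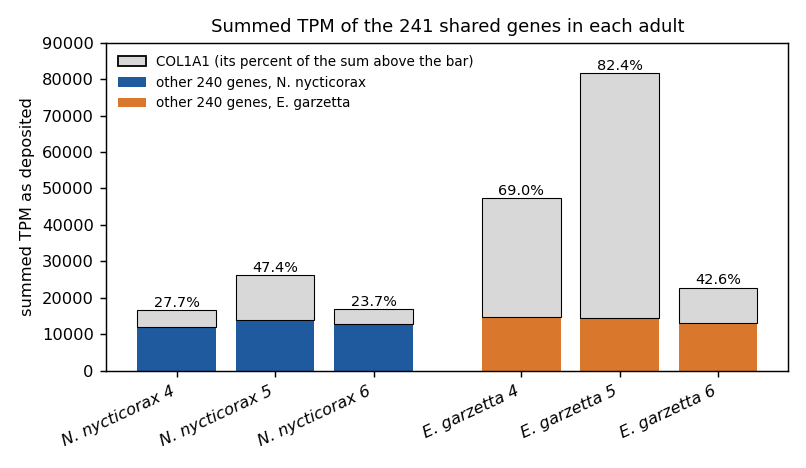
Summed TPM of the 241 shared genes as deposited, for each adult of *N. nycticorax* (blue) and *E. garzetta* (orange), with the part taken by *COL1A1* in grey and its percent above each bar. The coloured parts lie between 12014 and 14682 TPM in all 6 birds, while *COL1A1* runs from 4004 to 67385 TPM.

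The clearest differences between adults of the species lay in a transcription factor, *SOX14*, a myosin of sensory cells, *MYO3B*, and a receptor phosphatase, *PTPRM*. *SOX14* and *MYO3B* were expressed in the herons and nearly silent in the egrets. *PTPRM* was expressed in the egrets and had almost no signal in the herons, whose gene model is far shorter. Heron reads outside that short model were not counted, so the level of the whole gene in herons is not known. Most genes of the photoreceptor cascade were low in both species. After rescaling to a common sum, 24 of the 235 genes that passed the low-value filter differed between adults of the species (limma, Benjamini-Hochberg adjusted p below 0.05), which is 10.2%. Of these, 22 (9.36%) were higher in *N. nycticorax* and 2 (0.851%) were lower. With the median ratio 12 of 237 genes differed (5.06%), 6 higher (2.53%) and 6 lower (2.53%), so that the share of calls that were higher went from 91.7% to 50.0% with the scale. The fit was also run with TPM as deposited, with the sum taken without the 10 most abundant genes and with the sum taken without *COL1A1*. Under all 5 scalings 8 of 235 genes (3.4%) were called, 6 of them (2.55%) higher in *N. nycticorax* (*SOX14*, *MYO3B*, *GRK7*, *MYH10*, *NPR1* and *PVRL3*) and 2 (0.851%) lower (*PTPRM* and *ARR3*), and no gene was called higher under 1 scaling and lower under another. The other 16 genes called on the common sum had positive changes after median ratio scaling too, from 0.81 to 2.97 on the log2 scale, but none was called there (adjusted p from 0.054 to 0.279). The count of calls rested on single birds: it was 6, 7 and 139 without adults 4, 5 and 6 of *E. garzetta* and 5, 28 and 4 without adults 4, 5 and 6 of *N. nycticorax* on the common sum. The corresponding counts with the median ratio were 12, 9 and 41, and 5, 12 and 4.

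**Figure D2:**
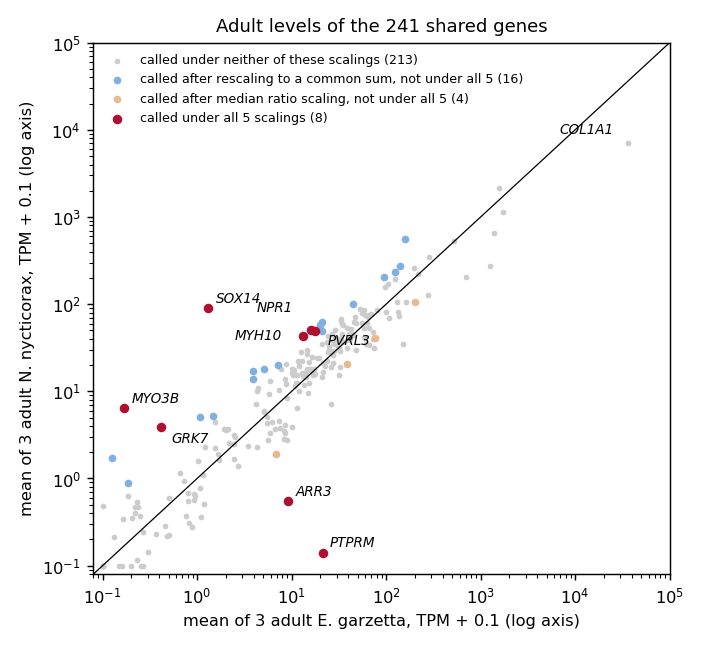
Mean TPM as deposited of each of the 241 genes in the 3 adult *E. garzetta* (horizontal) and the 3 adult *N. nycticorax* (vertical), both with 0.1 TPM added and on log axes; the line marks equal values. The 8 genes called under all 5 scalings are red and named, 16 further genes called on the common sum are blue, and 4 further genes called after median ratio scaling are pale orange.

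*SOX14*, a transcription factor of the SOX family known from the developing brain of chick and mouse, showed the largest difference among the called genes that were higher in *N. nycticorax*. Values are given in the order of adults 4, 5 and 6 here and in what follows, as TPM deposited. *SOX14* had 109.8, 93.5 and 67.5 TPM in *N. nycticorax* and 2.14, 0.21 and 1.28 TPM in *E. garzetta*. The lowest heron stood far above the highest egret, and the ratio of the means was 74.5. The log2 fold change was 7.52 ± 0.90 (SE), adjusted p = 2.93e-07 on the common sum, and 6.29 ± 0.66 (SE), adjusted p = 0.00182 after median ratio scaling. The model is a single exon in both species, on scaffold 34 from 4129100 to 4129843 in *N. nycticorax* and on scaffold 448 from 1395298 to 1396002 in *E. garzetta*, in the assembly that the study used for each (the file headers and labels name no build). It spans 744 and 705 coding bp. Its read equivalents in *E. garzetta* were 19.4, 2.0 and 10.8, so the egret level is known only roughly.

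*MYO3B*, a class III myosin that carries cargo along actin in photoreceptors and inner ear hair cells, was seen in every heron and hardly in the egrets. It had 5.22, 7.29 and 6.52 TPM in *N. nycticorax* and 0, 0 and 0.206 TPM in *E. garzetta*, and the groups did not overlap. The log2 fold change was 6.16 ± 0.98 (SE), adjusted p = 3.17e-05 on the common sum and 5.35 ± 0.58 (SE), adjusted p = 0.00182 after median ratio scaling; with 2 egrets at 0 these sizes depend on the added 0.1 TPM. The 8.0 read equivalents of adult 6 were all that *E. garzetta* had. The gene models were unequal, with 1557 bp in *N. nycticorax* and 3273 bp in *E. garzetta*.

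*GRK7*, the kinase that phosphorylates light-activated cone opsins, was low in both species and higher in *N. nycticorax*. It had 3.22, 4.13 and 4.04 TPM in *N. nycticorax* and 0.343, 0.336 and 0.262 TPM in *E. garzetta*, 12.1 times higher in the mean of the herons, with no overlap. The change was 4.30 ± 0.94 (SE), adjusted p = 0.00415 on the common sum and 3.03 ± 0.41 (SE), adjusted p = 0.00643 after median ratio scaling. The coding length was 1653 bp in both species, and between 5.2 and 7.5 read equivalents stood behind each egret value.

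The other 3 genes that were higher in *N. nycticorax* under all scalings were well expressed in both species. *MYH10* encodes the heavy chain of a non-muscle myosin that drives contraction of the cell cortex. It had 53.0, 36.6 and 39.7 TPM in *N. nycticorax* and 17.2, 11.9 and 10.1 TPM in *E. garzetta*, a ratio of means of 3.3, with changes of 2.92 ± 0.77 (SE), adjusted p = 0.0201 on the common sum and 1.50 ± 0.28 (SE), adjusted p = 0.0206 after median ratio scaling. Its models have the same number of exons (38) and nearly the same length (5616 and 5602 bp). *NPR1*, a membrane guanylyl cyclase that binds natriuretic peptides, had 52.4, 58.2 and 40.0 TPM in *N. nycticorax* and 14.7, 17.5 and 15.1 TPM in *E. garzetta*. Its changes were 2.84 ± 0.75 (SE), adjusted p = 0.0201 and 1.42 ± 0.26 (SE), adjusted p = 0.0206 on the same scales, with models of 693 and 621 bp. *PVRL3*, a nectin that joins epithelial cells, had 49.1, 40.2 and 58.3 TPM in *N. nycticorax* and 20.6, 13.6 and 18.8 TPM in *E. garzetta*. Its changes were 2.67 ± 0.77 (SE), adjusted p = 0.0281 and 1.25 ± 0.21 (SE), adjusted p = 0.0159, and its model was far shorter in *E. garzetta* (570 bp) than in *N. nycticorax* (1497 bp). In each of the 3 genes the lowest heron stood above the highest egret. *MYH10* and *PVRL3* fall outside the rule for named genes and were chosen after their values were seen.

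*PTPRM*, a receptor tyrosine phosphatase that binds its like on neighbouring cells, was near 0 in *N. nycticorax* and moderate in *E. garzetta*. It had 0.121, 0 and 0 TPM in *N. nycticorax* and 20.3, 25.3 and 17.9 TPM in *E. garzetta*. The only signal in an adult heron came to 1.6 read equivalents, against 884 to 1418 in the egrets. The change was -6.77 ± 0.97 (SE), adjusted p = 6.92e-06 on the common sum and -7.48 ± 0.48 (SE), adjusted p = 2.04e-04 after median ratio scaling, sizes that depend on the added 0.1 TPM. The paired models differ in extent: on scaffold 175 of *N. nycticorax* the gene has 3 exons and 1062 coding bp from 840446 to 850242, and on scaffold 160 of *E. garzetta* it has 29 exons and 4158 coding bp from 76238 to 407170. Reads on the parts of the gene that the short model leaves out were not counted for *N. nycticorax*.

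*ARR3*, cone arrestin, which quenches light-activated cone opsin after the kinase has acted, was lower in *N. nycticorax*. It had 0.261, 0.467 and 0.617 TPM in *N. nycticorax* and 9.36, 9.05 and 9.05 TPM in *E. garzetta*, 20.4 times higher in the mean of the egrets, whose 3 values lay close together. The change was -3.08 ± 0.94 (SE), adjusted p = 0.0335 on the common sum and -4.34 ± 0.41 (SE), adjusted p = 0.00157 after median ratio scaling. Coding lengths were alike (1209 and 1230 bp), with 14 and 15 exons. An identifier paired with *ARR3* also stands in the table under *SAG*, the rod arrestin, so that the arrestin these values belong to is uncertain. Without the 5 genes whose identifiers stand under a second symbol, 23 genes were called on the common sum, of which 22 were higher in *N. nycticorax*.

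**Figure D3:**
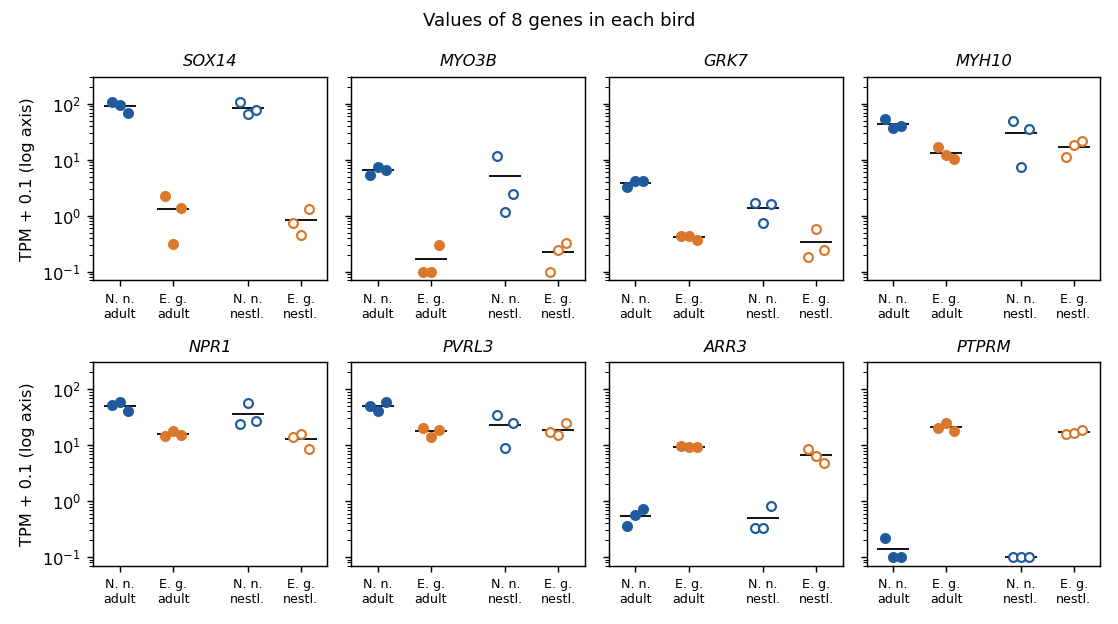
TPM as deposited, with 0.1 added, on a log axis for the 8 genes called under all 5 scalings, in each adult (filled) and each nestling (open) of *N. nycticorax* (blue, N. n.) and *E. garzetta* (orange, E. g.); black lines are group means. The adults of the species do not overlap in any of the 8 panels, and the nestlings of *SOX14*, *MYO3B*, *GRK7*, *NPR1*, *ARR3* and *PTPRM* do not either.

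Leaving out each adult in turn left *SOX14*, *MYO3B* and *PTPRM* called in 6 of 6 fits on both scales. *ARR3* was called in 6 of 6 fits after median ratio scaling, but on the common sum it lost its call without *E. garzetta* adult 4 (adjusted p = 0.126) and without *N. nycticorax* adults 4, 5 and 6 (0.243, 0.0831 and 0.181). *GRK7* lost it only without *N. nycticorax* adult 6 (adjusted p = 0.0528 on the common sum and 0.0553 after median ratio scaling). *MYH10*, *NPR1* and *PVRL3* were called in 3, 3 and 2 of 6 fits on the common sum and in 2, 2 and 4 of 6 after median ratio scaling. The calls lost on the common sum were those without *E. garzetta* adult 4 (adjusted p = 0.0662, 0.103 and 0.103), without *N. nycticorax* adult 4 (0.203, 0.203 and 0.203), without *N. nycticorax* adult 6 (0.192, 0.181 and 0.233) and, for *PVRL3* alone, without *E. garzetta* adult 5 (0.0879). With the median ratio all 3 genes lost theirs without *N. nycticorax* adult 4 (adjusted p = 0.133, 0.119 and 0.116) and adult 6 (0.0863, 0.0553 and 0.0907), *MYH10* and *NPR1* without adult 5 (0.0617 and 0.0781), *MYH10* without *E. garzetta* adult 5 (0.0518) and *NPR1* without *E. garzetta* adult 4 (0.056). The direction was the same in every one of these fits for all 24 and all 12 genes called on the respective scale.

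The length of the paired gene models was set beside the calls, because a short or partial model samples only part of a gene. Of the 235 genes tested on the common sum, 155 (66.0%) had coding lengths within 10% of each other, and so did 14 of the 24 called genes, 4 of the 8 called under all scalings (*SOX14*, *GRK7*, *MYH10* and *ARR3*) and 5 of the 12 called after median ratio scaling. Lengths more than 50% apart were found in 22 of the 241 shared genes and in 5 of the 24 called genes. They were also found in 3 of the 8 (*MYO3B*, *PTPRM* and *PVRL3*) and in 3 of the 12. The median log2 fold change after median ratio scaling was -0.04 over 157 genes of like length, -0.19 over 35 genes with the longer model in *N. nycticorax* and 0.13 over 45 genes with the longer model in *E. garzetta*. Restricted to genes of like length, 5 genes were called on the common sum, which then holds no *COL1A1*, and 4 after median ratio scaling. The part of model length in single calls was not tested.

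The genes were sorted into 15 lists by role, and no list was tested as a set. Over all genes the median log2 fold change was 1.36 on the common sum and -0.03 after median ratio scaling. Calls over all tested genes were 9.36% higher and 0.851% lower on the common sum, and 2.53% and 2.53% after median ratio scaling. The calls of each list stand beside these shares. Values of the groups did not overlap for 77 genes higher (32.0%) and 4 genes lower (1.66%) in *N. nycticorax* on the common sum, and for 42 higher (17.4%) and 36 lower (14.9%) after median ratio scaling.

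**Figure D4:**
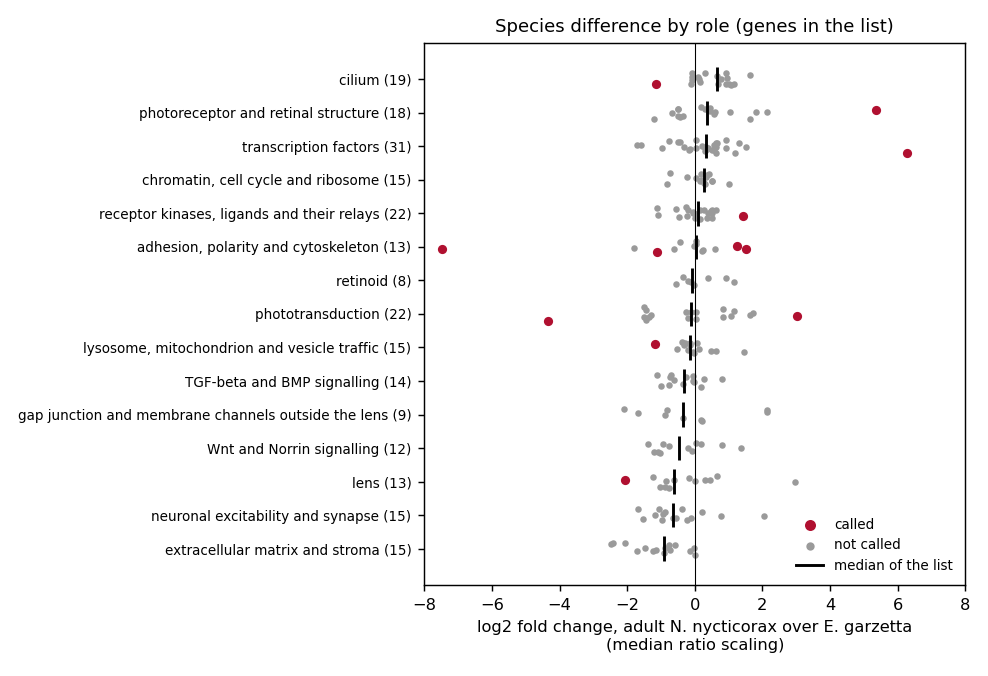
Log2 fold change after median ratio scaling, adult *N. nycticorax* over adult *E. garzetta*, for the genes of each role list (number of genes in parentheses), with called genes in red and the median of each list as a black bar. The medians run from -0.91 for extracellular matrix and stroma to 0.66 for the cilium, and the called genes are spread over 8 lists.

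The phototransduction list was nearly silent, as 14 of its 22 genes had a mean under 1 TPM in both species. Over its genes the median of the mean levels was 0.425 TPM for the herons and 0.336 TPM for the egrets, against 17.5 and 14.4 TPM over all 241 genes. *GNAT1*, the rod transducin, *PDC*, phosducin, and *CNGA1*, the rod channel, were listed at 0 in all 6 adults. *RH1*, rod opsin, had 0.289, 0.162 and 0.791 TPM in *N. nycticorax* and 1.2, 0.536 and 1.53 TPM in *E. garzetta*, with a change of -1.49 after median ratio scaling that was not called (adjusted p = 0.161), and the groups overlapped in these deposited values. Of the 19 genes of the list that were tested, 2 were called higher and 1 lower on the common sum, beside 9.36% and 0.851% of all genes. After median ratio scaling 1 was called higher and 1 lower, beside 2.53% and 2.53% of all genes. Besides *GRK7* and *ARR3*, the gene called was *RGS9*, which speeds the shut-off of transducin and of other G proteins and had 13.2, 12.2 and 16.1 TPM in *N. nycticorax* and 1.88, 4.02 and 5.53 TPM in *E. garzetta*. Its change was 3.12 ± 0.88 (SE), adjusted p = 0.027 on the common sum and 1.72 ± 0.44 (SE), adjusted p = 0.0653 after median ratio scaling. *GNB5*, the G protein beta subunit that forms a complex with *RGS9*, had the highest mean of the list over the 6 adults. It had 14.0, 18.4 and 18.3 TPM in *N. nycticorax* and 12.6, 12.3 and 23.8 TPM in *E. garzetta*, with overlap and changes of 1.31 and -0.11 that were not called (adjusted p = 0.221 and 0.854). In the channels, chosen after their values were seen, *CNGB1*, a beta subunit that rods and, in mammals, olfactory neurons share, had 4.88, 3.56 and 4.67 TPM in *N. nycticorax* and 1.53, 0.337 and 2.48 TPM in *E. garzetta*. *CNGA3*, the cone alpha subunit, had 2.7, 4.0 and 4.8 TPM in *N. nycticorax* and 8.53, 15.9 and 5.63 TPM in *E. garzetta*. In these deposited values the groups did not overlap for either, in opposite directions. On the common sum the changes were 2.91 for *CNGB1* and -0.10 for *CNGA3* (limma, adjusted p = 0.0532 and 0.922). After median ratio scaling they were 1.65 and -1.50 (adjusted p = 0.142 and 0.13), so neither gene was called on either scale.

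Genes of photoreceptor and retinal structure gave 3 calls among 17 tested on the common sum, all higher in *N. nycticorax*, beside 9.36% of all genes. After median ratio scaling 1 of 18 was called higher, beside 2.53% of all genes. The median log2 fold change was 1.59 and 0.37 on these scales. *MYO3B* was the gene called on both. *ATP8A2*, a flippase that moves phospholipids across the membrane of photoreceptors and other neurons, had 3.23, 4.97 and 6.89 TPM in *N. nycticorax* and 1.59, 0.373 and 0.997 TPM in *E. garzetta*, with changes of 3.43 ± 0.96 (SE), adjusted p = 0.027 on the common sum and 2.15 ± 0.55 (SE), adjusted p = 0.0653 after median ratio scaling. *USH1C*, a scaffold of hair cell and photoreceptor complexes, was the third (chosen after its values were seen), with 5.89, 3.65 and 5.67 TPM in *N. nycticorax* and 0.95, 1.08 and 2.1 TPM in *E. garzetta* and adjusted p = 0.0372 on the common sum and 0.0653 after median ratio scaling. *PDE6D*, which carries prenylated proteins to cilia, had the highest mean of the list. It had 60.9, 45.7 and 53.1 TPM in *N. nycticorax* and 89.9, 53.6 and 52.6 TPM in *E. garzetta* and was not called (adjusted p = 0.316 and 0.243).

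The cilium list had the highest median on both scales, 2.07 on the common sum and 0.66 after median ratio scaling, and 0.89 with TPM as deposited. With the median ratio 14 of its 19 genes had positive changes, beside 114 of 237 over all genes. Without overlap, 6 were higher in *N. nycticorax* and 1 was lower, beside 17.4% and 14.9% of all genes. Calls were few. *WDPCP*, which acts in planar polarity and ciliogenesis, was the only one on the common sum. It had 17.4, 12.5 and 23.8 TPM in *N. nycticorax* and 6.72, 2.79 and 5.63 TPM in *E. garzetta*, with changes of 3.02 ± 0.87 (SE), adjusted p = 0.0281 on the common sum and 1.62 ± 0.37 (SE), adjusted p = 0.054 after median ratio scaling. *NPHP4*, a protein of the ciliary transition zone, was called after median ratio scaling and not on the common sum, and in the other direction. It had 21.3, 23.3 and 17.3 TPM in *N. nycticorax* and 36.9, 34.3 and 45.6 TPM in *E. garzetta*, with changes of 0.28 ± 0.76 (SE), adjusted p = 0.809 on the common sum and -1.14 ± 0.22 (SE), adjusted p = 0.022 after median ratio scaling, so that its sign turned with the scale, and with models of 1434 bp in *N. nycticorax* and 822 bp in *E. garzetta*. It was chosen after its values were seen. *B9D1*, another transition zone protein and the most abundant of the list, had 95.2, 57.1 and 79.3 TPM in *N. nycticorax* and 87.4, 51.0 and 70.5 TPM in *E. garzetta* and was not called (adjusted p = 0.172 and 0.87). *E. garzetta* adult 5 was the lowest of the 6 adults for *WDPCP* and *B9D1*, and the values of *IFT88*, a subunit of the ciliary transport train chosen after its values were seen, show the same bird: 75.0, 49.7 and 75.9 TPM in *N. nycticorax* and 46.4, 14.3 and 37.8 TPM in *E. garzetta*.

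Among transcription factors, 4 of 30 tested were called on the common sum, all higher in *N. nycticorax*, beside 9.36% of all genes. After median ratio scaling 1 of 30, *SOX14*, was called higher, beside 2.53% of all genes. The list's medians were 1.64 and 0.34. *SOX2*, which basal and supporting cells of the OE express, had 203, 225 and 182 TPM in *N. nycticorax* and 141, 11.5 and 133 TPM in *E. garzetta*. The herons lay above every egret and *E. garzetta* adult 5 far below the other egrets, with changes of 2.95 ± 0.87 (SE), adjusted p = 0.0297 on the common sum and 1.53 ± 0.83 (SE), adjusted p = 0.279 after median ratio scaling. *GRHL2*, a factor of epithelial identity, had 53.7, 38.1 and 55.8 TPM in *N. nycticorax* and 21.6, 8.25 and 33.3 TPM in *E. garzetta*, with changes of 2.60 ± 0.83 (SE), adjusted p = 0.0372 and 1.19 ± 0.42 (SE), adjusted p = 0.13. *AHR*, the aryl hydrocarbon receptor (chosen after its values were seen), had 68.5, 34.8 and 82.6 TPM in *N. nycticorax* and 21.1, 13.6 and 28.5 TPM in *E. garzetta*, with adjusted p = 0.0297 on the common sum and 0.0653 after median ratio scaling. *EPAS1*, a hypoxia-inducible factor of endothelium, was the most abundant of the list. It had 260.2, 251 and 272 TPM in *N. nycticorax* and 240.1, 90.6 and 261 TPM in *E. garzetta* and was not called (adjusted p = 0.0926 and 0.597). The marker genes set for basal and supporting cells (*SOX2*, *PAX6*, *KLF4* and *MEIS2*, 4 of 4 measured) summed to 391.5, 496 and 348 TPM in *N. nycticorax* and to 227.2, 168.5 and 279.9 TPM in *E. garzetta*, without overlap. *SOX2* and *MEIS2* were higher in every heron than in any egret. *PAX6* and *KLF4* overlapped between the species, and *PAX6* was above every heron in adults 4 and 6 of *E. garzetta*. In tissue samples fewer cells of a type and less RNA per cell cannot be told apart, and the part of cell makeup in these differences was not tested.

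*AQP5*, a water channel of glands and the single gland marker, was lowest, as *SOX2* was, in adult 5 of *E. garzetta*. It had 447, 687 and 563 TPM in *N. nycticorax* and 200.1, 25.3 and 250.3 TPM in *E. garzetta*. All herons lay above all egrets. Its change was 3.55 ± 0.82 (SE), adjusted p = 0.00652 on the common sum and 2.13 ± 0.75 (SE), adjusted p = 0.13 after median ratio scaling. In the list of gap junction and membrane channels outside the lens, the second gene called on the common sum was *SLC7A11*, a cystine and glutamate exchanger. It had 25.9, 5.85 and 19.9 TPM in *N. nycticorax* and 1.55, 1.6 and 8.18 TPM in *E. garzetta*, overlapping, with changes of 3.50 ± 0.99 (SE), adjusted p = 0.027 and 2.13 ± 0.75 (SE), adjusted p = 0.13. *AQP1*, a water channel of vessels and the most abundant of the list, had 1633, 2649 and 2094 TPM in *N. nycticorax* and 1572, 1211 and 1963 TPM in *E. garzetta* and was not called (adjusted p = 0.0771 and 0.767). *GJA1*, a gap junction protein of epithelia and stroma, had 131, 373 and 110.4 TPM in *N. nycticorax* and 881, 846 and 354 TPM in *E. garzetta*. It was at its highest in the egrets, with overlap between the groups, and was not called (adjusted p = 0.408 and 0.0715). In the retinoid list, 1 of 8 genes was called on the common sum and 0 after median ratio scaling, beside 10.2% and 5.06% of all genes. The gene called was *ALDH1A3*, which makes retinoic acid. It had 236, 231 and 233 TPM in *N. nycticorax* and 87.3, 58.7 and 223 TPM in *E. garzetta*, where adult 6 of *E. garzetta* came near the herons and the other egrets were lower, and its change was 2.35 ± 0.75 (SE), adjusted p = 0.0372 on the common sum and 0.93 ± 0.40 (SE), adjusted p = 0.182 after median ratio scaling.

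The extracellular matrix and stroma list had the lowest median of the 15 lists after median ratio scaling, -0.91, and the third lowest, 0.52, on the common sum, under the 1.36 of all genes, so that its sign turned with the scale. With the median ratio 14 of its 15 genes had negative changes. On that scale 7 did not overlap and were lower in *N. nycticorax*, beside the 14.9% of all genes, but none was called on either scale. *LUM*, lumican, a proteoglycan that orders collagen fibrils, had 100.5, 479 and 251 TPM in *N. nycticorax* and 1537, 1726 and 488 TPM in *E. garzetta*. The highest heron and the lowest egret were close, and the change was -1.05 ± 0.63 (SE), adjusted p = 0.208 on the common sum and -2.48 ± 0.74 (SE), adjusted p = 0.081 after median ratio scaling. *COL1A1* itself had changes of -0.99 ± 0.56 (SE), adjusted p = 0.192 and -2.41 ± 1.06 (SE), adjusted p = 0.182, with overlap between adult 5 of *N. nycticorax* and adult 6 of *E. garzetta*. *COL5A1*, a fibril collagen chain, had 29.1, 49.4 and 25.8 TPM in *N. nycticorax* and 179.9, 237 and 39.3 TPM in *E. garzetta*, with models of 543 bp in *N. nycticorax* and 5381 bp in *E. garzetta*. *VIM*, vimentin, the intermediate filament of mesenchymal cells, had 529, 675 and 745 TPM in *N. nycticorax* and 1384, 2064 and 733 TPM in *E. garzetta*. *PDGFRA*, a growth factor receptor of fibroblasts, had 26.4, 37.0 and 25.6 TPM in *N. nycticorax* and 54.2, 62.4 and 28.6 TPM in *E. garzetta*. The 5 connective tissue markers (5 of 5 measured) summed to 5285, 13630 and 5052 TPM in *N. nycticorax* and 35830, 71480 and 11000 TPM in *E. garzetta*, with overlap. The 4 markers of endothelium and pericytes summed to 2023 to 3047 TPM and 1523 to 2339 TPM, *COL4A1*, a basement membrane collagen, and *PDGFRB*, a receptor of pericytes, among them with adjusted p = 0.137 and 0.985 after median ratio scaling.

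Of the genes that signal between cells, each list held a single call on the common sum, higher in *N. nycticorax*, beside 9.36% of all genes. In the Wnt and Norrin list it was *DIXDC1*, a positive regulator of Wnt signalling, with 22.0, 17.6 and 20.0 TPM in *N. nycticorax* and 8.57, 3.32 and 9.55 TPM in *E. garzetta*, changes of 2.77 ± 0.87 (SE), adjusted p = 0.0372 on the common sum and 1.37 ± 0.36 (SE), adjusted p = 0.0653 after median ratio scaling, and models of 378 bp in *N. nycticorax* and 2097 bp in *E. garzetta*. *CTNNB1*, beta-catenin, the effector of the pathway and the most abundant of the list's 12 genes, had 520.2, 554 and 509.7 TPM in *N. nycticorax* and 620.0, 456 and 479 TPM in *E. garzetta*, with overlap. Its changes were 1.23 on the common sum and -0.19 after median ratio scaling, opposite in sign, and neither was called (adjusted p = 0.165 and 0.634). In the TGF-beta and BMP list of 14 genes it was *TGIF1*, a repressor of TGF-beta responses and the most abundant of its list, with 319.7, 214 and 284 TPM in *N. nycticorax* and 129, 86.2 and 201 TPM in *E. garzetta* and changes of 2.23 ± 0.72 (SE), adjusted p = 0.0372 and 0.81 ± 0.28 (SE), adjusted p = 0.13. Among 22 receptor kinases, ligands and relays it was *NPR1*, while *GNB1*, a G protein beta subunit and the most abundant, had 299, 302 and 429 TPM in *N. nycticorax* and 317, 264 and 272 TPM in *E. garzetta* (adjusted p = 0.12 and 0.954). The medians of these lists were 0.95, 1.11 and 1.51 on the common sum and -0.47, -0.31 and 0.09 after median ratio scaling.

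The adhesion, polarity and cytoskeleton list held 3 of the 8 genes called under all scalings, *PTPRM*, *MYH10* and *PVRL3*, among its 13 genes, beside the 3.4% of all genes. With the median ratio 2 of its genes were called higher and 2 lower, beside 2.53% and 2.53% of all genes. The fourth was *NF2*, merlin, which restrains growth at cell contacts (chosen after its values were seen). It had 43.8, 38.2 and 41.1 TPM in *N. nycticorax* and 80.0, 62.5 and 87.0 TPM in *E. garzetta*, without overlap, with changes of 0.31 ± 0.73 (SE), adjusted p = 0.77 on the common sum and -1.12 ± 0.16 (SE), adjusted p = 0.00774 after median ratio scaling, so that its sign turned with the scale. *PRKCI*, an atypical protein kinase C of cell polarity, had the highest mean of the list. It had 64.2, 58.5 and 65.6 TPM in *N. nycticorax* and 47.2, 35.7 and 53.7 TPM in *E. garzetta* and was not called (adjusted p = 0.115 and 0.358).

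Lists of the cell interior had medians of 1.68 (chromatin, cell cycle and ribosome) and 1.29 (lysosome, mitochondrion and vesicle traffic) on the common sum and of 0.27 and -0.13 after median ratio scaling. In the list of chromatin, cell cycle and ribosome, *BAK1*, which opens the mitochondrial outer membrane in apoptosis, was called on the common sum. It had 127, 95.1 and 80.3 TPM in *N. nycticorax* and 36.6, 28.8 and 67.5 TPM in *E. garzetta*, with changes of 2.45 ± 0.75 (SE), adjusted p = 0.0357 and 1.02 ± 0.30 (SE), adjusted p = 0.0793 and models of 252 bp in *N. nycticorax* and 567 bp in *E. garzetta*. *RPL24*, a protein of the large ribosomal subunit, had 1075, 1156 and 1171 TPM in *N. nycticorax* and 1376, 1910.2 and 1909 TPM in *E. garzetta* and was not called (adjusted p = 0.458 and 0.156). In the list of lysosome, mitochondrion and vesicle traffic, *SLC25A25*, a mitochondrial carrier of adenine nucleotides, was called on the common sum, with 63.6, 41.1 and 69.5 TPM in *N. nycticorax* and 10.8, 15.4 and 33.1 TPM in *E. garzetta* and changes of 2.86 ± 0.80 (SE), adjusted p = 0.027 and 1.44 ± 0.40 (SE), adjusted p = 0.0685. *DNAJC19*, a co-chaperone of mitochondrial protein import (chosen after its values were seen), was called after median ratio scaling and with TPM as deposited. It had 102, 104 and 108 TPM in *N. nycticorax* and 215, 173 and 222 TPM in *E. garzetta*, a narrow range within each species, with changes of 0.24 ± 0.68 (SE), adjusted p = 0.809 on the common sum and -1.18 ± 0.17 (SE), adjusted p = 0.00693 after median ratio scaling, opposite in sign. *RAB18*, a small GTPase of lipid droplets and the most abundant of the list, had 203, 216 and 254 TPM in *N. nycticorax* and 229, 189.9 and 232 TPM in *E. garzetta* and was not called (adjusted p = 0.172 and 0.57).

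Of the 13 lens genes 5 had a mean under 1 TPM in both species and 4 averaged 10 TPM or more in both, and of the 15 genes of neuronal excitability and synapse these were 7 and 2. *CRYBA1*, a lens crystallin (chosen after its values were seen), was called lower after median ratio scaling, with 2.09, 1.2 and 2.08 TPM in *N. nycticorax* and 4.36, 7.46 and 8.48 TPM in *E. garzetta*, no overlap, and changes of -0.70 on the common sum (adjusted p = 0.561) and -2.07 ± 0.42 (SE), adjusted p = 0.0325 after median ratio scaling. *RCN1*, a calcium-binding protein of the endoplasmic reticulum, was the most abundant of the lens list, with 106, 154 and 126 TPM in *N. nycticorax* and 362, 340.3 and 131 TPM in *E. garzetta* (adjusted p = 0.814 and 0.142). The lens markers *CRYAA*, *CRYBB1* and *BFSP2* summed to at most 3.063 TPM and the 5 retina markers to at most 3.568 TPM in any adult. In the neuronal list *CACNA1S*, the voltage-sensing calcium channel of skeletal muscle and the single muscle marker, was called on the common sum, with 0.565, 1.12 and 0.652 TPM in *N. nycticorax* and 0.116, 0.0884 and 0.0504 TPM in *E. garzetta*, no overlap, and changes of 3.12 ± 0.99 (SE), adjusted p = 0.0372 and 2.05 ± 0.51 (SE), adjusted p = 0.0653. The egret values were near the added 0.1 TPM, so the size depends on it. On the common sum the change was 1.139 with 1 TPM added and 4.195 with 0.01 TPM added, where the gene was not called (limma, adjusted p = 0.0618). *VSNL1*, a neuronal calcium sensor found in olfactory neurons of mammals, was the most abundant. It had 43.2, 23.5 and 39.0 TPM in *N. nycticorax* and 60.9, 68.0 and 52.5 TPM in *E. garzetta*, lower in every heron than in any egret in these deposited values. Its change was 0.38 on the common sum and -1.05 after median ratio scaling, opposite in sign, and it was not called (adjusted p = 0.709 and 0.0653). The 6 neuronal markers, which are not specific to olfactory neurons, summed to 164.6 to 192.8 TPM in *N. nycticorax* and 197.6 to 218 TPM in *E. garzetta*. In these deposited values the sum was lower in every heron than in any egret, but the direction depended on the scale. On the common sum the changes of the 6 markers were all positive, from 0.38 (*VSNL1*) to 1.38 (*SLC24A4*). After median ratio scaling they ran from -1.05 (*VSNL1*) to 0.21 (*SLC24A4*). *THY1* and *UCHL3*, both abundant in neurons, had 87.6, 83.8 and 84.9 TPM in *N. nycticorax* and 78.7, 80.2 and 80.7 TPM in *E. garzetta*, and 40.4, 41.3 and 35.2 TPM in *N. nycticorax* and 38.2, 33.7 and 46.5 TPM in *E. garzetta*, respectively. In deposited values *THY1* was higher in every heron than in any egret. Its changes were 1.29 on the common sum and -0.13 after median ratio scaling, and it was not called (adjusted p = 0.172 and 0.666). *TUB*, *GPM6A* and *SLC24A4* overlapped between the species and were not called. Genes that define mature olfactory neurons are not among the 241, so the label of the tissue was checked only through these markers.

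*IKZF1*, a lymphoid factor, had 18.3, 11.6 and 22.5 TPM in *N. nycticorax* and 9.47, 4.86 and 16.9 TPM in *E. garzetta*, *FASLG*, a ligand of cytotoxic lymphocytes, had 2.82, 0.659 and 2.85 TPM in *N. nycticorax* and 0.853, 0.375 and 3.13 TPM in *E. garzetta*, and *MITF*, the factor of pigment cells, had 17.8, 16.6 and 20.0 TPM in *N. nycticorax* and 16.4, 14.2 and 20.5 TPM in *E. garzetta*. None was called on either scale. *GRHL3*, a partner of *GRHL2* in epithelia, had 11.9, 13.2 and 10.1 TPM in *N. nycticorax* and 10.9, 8.03 and 21.6 TPM in *E. garzetta* and was not called. With *GJA1*, these epithelial markers (3 of 3 measured) summed to 197.1, 424.5 and 176.2 TPM in *N. nycticorax* and 913.7, 862.1 and 408.7 TPM in *E. garzetta*. The egrets were mostly higher in this sum, of which *GJA1* made up the most, while *GRHL2* was higher in the herons; the groups overlapped.

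*DRD2*, *GABRR2*, *GLRA1* and *PDE6C* were listed at 0 in all 3 adult *N. nycticorax* but not in all adult *E. garzetta*, and *RGR* was the other way round. A count of 3 read equivalents per library, taken as the lowest level that can be told from 0 for counting error only, corresponded to a mean of 0.098 TPM for *PDE6C* in *N. nycticorax*. *PDE6C*, the cone phosphodiesterase, had 0.133, 0.131 and 0.23 TPM in *E. garzetta*, a mean 1.67 times that limit. No egret had more than 6.9 read equivalents, and the spread between birds does not enter the limit, so a lower level in *N. nycticorax* is not established. *RGR*, a retinal G protein-coupled receptor, was above 0 in a single heron, at 1.16 TPM and 12.7 read equivalents. That bird alone brought the heron mean above the egret limit of 0.299 TPM, so no fold between the species is given. *DRD2*, *GABRR2* and *GLRA1* were seen in 1 or 2 egrets at means under their limits, so no fold is given. None of these genes was called.

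The adults differed among themselves more in *E. garzetta*. Across the 241 genes Pearson's r of log2(TPM + 0.1) was 0.960 to 0.974 between the herons, 0.923 to 0.951 between the egrets and 0.859 to 0.919 between birds of different species, where the points share libraries and a wide range of levels and the r is a description only. Among the 199 genes that averaged 1 TPM or more after median ratio scaling, log2 values had a median SD of 0.286 between herons and 0.468 between egrets, and 155 genes had the larger SD in *E. garzetta*. In adult 5 of *E. garzetta* 5 genes lay at least 4-fold below both other egrets (*AQP5*, *CRYBA2*, *PAX6*, *RP1* and *SOX2*). In adult 6 these were 4 other genes, *ADAMTS18*, *COL5A1*, *INHBA* and *TGFB2*. *PAX6*, a factor of the OE's basal and supporting cells, had 5.5, 4.01 and 5.35 TPM in *N. nycticorax* and 8.91, 0.332 and 6.94 TPM in *E. garzetta*. *KLF4* and *MEIS2*, also markers of these cells, had 136, 218 and 118 TPM in *N. nycticorax* and 44.6, 142 and 107 TPM in *E. garzetta*, and 47.3, 48.3 and 41.9 TPM in *N. nycticorax* and 33.1, 14.7 and 33.0 TPM in *E. garzetta*, respectively. Only *CALB1*, a calcium-binding protein, set a heron apart in this way, in adult 6, and it lay above the others.

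The nestlings of both species, which took no part in the adult calls, were then examined for the same genes. On the common sum 4 of 240 genes differed between nestlings (1.67%), and after median ratio scaling 5 of 240 (2.08%). All 24 adult calls on the common sum had the same sign in nestlings, beside 174 of 235 genes (74.0%) that had the same sign at both stages, and 3 of the 24 were called there. Of the calls made with the median ratio, 10 of 12 had the same sign, beside 151 of 237 genes (63.7%), and 4 were called. *SOX14*, *MYO3B* and *PTPRM* were called in nestlings on both scales and *ARR3* after median ratio scaling only (adjusted p = 0.102 on the common sum). *SOX14* had 107, 66.1 and 78.3 TPM in the heron nestlings (1, 2 and 3 in order) and 0.651, 0.359 and 1.24 TPM in the egret nestlings, with adjusted p = 3.88e-04 after median ratio scaling. *MYO3B* had 11.6, 1.09 and 2.33 TPM and 0, 0.147 and 0.232 TPM (adjusted p = 0.0243). *PTPRM* was listed at 0 in each of the 3 nestling herons and had 16.0, 16.7 and 18.3 TPM in the egrets (adjusted p = 1.37e-04), and *ARR3* had 0.227, 0.237 and 0.724 TPM and 8.45, 6.32 and 4.69 TPM (adjusted p = 0.0487). These 4 genes thus differed in the same direction in a second set of birds, which were mapped to the same gene models.

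Of the 8 genes called under all scalings in adults, 8 had the same sign in nestlings and no overlap after median ratio scaling, beside 32 of 241 genes (13.3%) that were higher and 35 (14.5%) that were lower without overlap. *GRK7* had 1.6, 0.634 and 1.52 TPM and 0.0851, 0.488 and 0.145 TPM and was not called in nestlings (adjusted p = 0.0826). *NPR1* had 23.9, 55.4 and 26.6 TPM and 13.9, 15.7 and 8.57 TPM (adjusted p = 0.208). *MYH10* and *PVRL3* overlapped in the deposited values, where nestling 2 of *N. nycticorax*, the bird with the lowest median over the 241 genes (4.08 TPM, against 13.8 to 17.4 TPM in the other nestlings), was low for both, at 7.43 and 8.86 TPM. The fifth gene called in nestlings, *GUCA1A*, an activator of the guanylyl cyclase of photoreceptors, had 0.665, 0.767 and 1.78 TPM in *N. nycticorax* and was listed at 0 in each nestling of *E. garzetta*. In adults it was seen at 0, 0.262 and 1.34 TPM and 0, 0.264 and 0 TPM and was not called, and its identifier also stands under another symbol. It was chosen after its values were seen. A test of whether the species difference itself changed with stage called 0 of 239 genes on the common sum (limma, 7 at an unadjusted p below 0.05) and 0 of 238 after median ratio scaling (14 at an unadjusted p below 0.05).

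**Figure D5:**
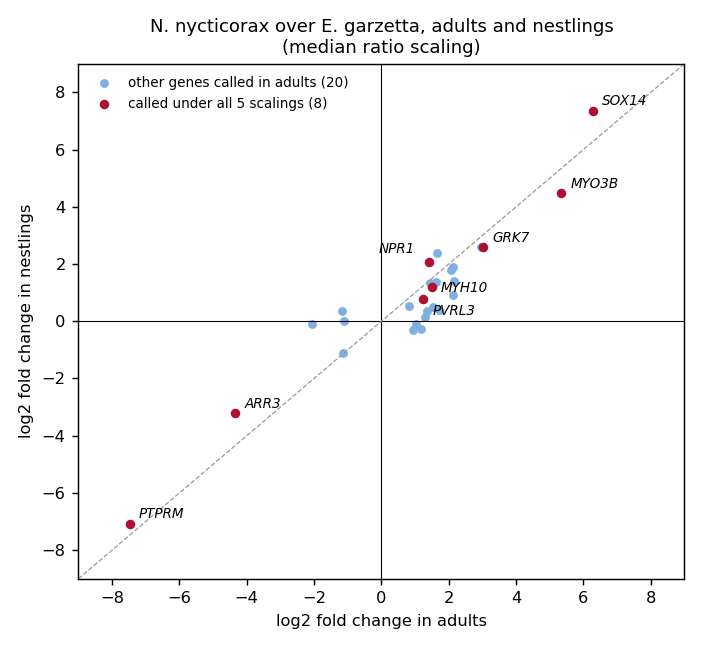
Log2 fold change of *N. nycticorax* over *E. garzetta* in adults (horizontal) and in nestlings (vertical), both after median ratio scaling, for the 28 genes called in adults on either scale; the dashed line marks equal changes. Of the 28 genes, 23 had the same sign at both stages, and the 8 named genes (red) were called in adults under all 5 scalings.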

How the data were processed

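OE RNA of 12 birds was sequenced, 1 library per bird, and the 6 adults were compared. Per the labels and methods, the authors trimmed reads with Trimmomatic, mapped them with HISAT2 (version not given in the sources used here) to each species' own genome, and quantified the annotated transcripts of every bird with StringTie 2.1.4. The deposited TPM values count transcripts per 1000000 and cover all annotated genes of a species. The deposited coverage and exon coordinates, also from StringTie, gave coding lengths and read equivalents. A gene was kept where the study's table pairs its symbol with an identifier of both species, each identifier used once; no genome sequence was used, so the pairs rest on that table. TPM was rescaled so that the 241 genes had the same sum in each adult (35258 TPM, the mean). Those averaging 0.02 TPM or more over the adults were tested with limma 3.58.1 in R 4.3.3 (lmFit, eBayes with a trend) on log2(TPM + 0.1), with Benjamini-Hochberg adjustment over all tested genes and a threshold of 0.05. The added 0.1 TPM shrinks the fold changes of genes with low values. The script was tested on simulated data. Intervals and limits from read equivalents cover counting error only. The p-values compare 3 birds with 3 birds, with the variance of each gene drawn by limma towards a trend over all tested genes. Their size therefore rests on the spread of the other genes too, which share the scale factor of each bird. Nestlings were fitted alone, and all 12 birds entered the test of species by stage.

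The named genes were, among called genes in each direction, the 10 with the largest change and at least 1 TPM in the higher species; the 5 genes with the highest mean in each species; in each list the called gene with the smallest p and the gene with the highest mean; and the markers. The genes, lists and markers were chosen with earlier results of these data known. Alternatives were other pseudocounts (0.01 and 1 TPM), no filter or a mean of at least 1 TPM, other scalings, genes of like coding length, identifiers under a single symbol, no trend, a replicate block, all 12 birds in one fit and each bird left out. The sum without *COL1A1*, and the median ratio scaling combined with like lengths, the block or a left-out bird, were added after the data had been seen. Python 3.11.15, numpy 2.4.6, pandas 2.3.3 and matplotlib 3.10.9 made tables and plots.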

Additional observations from a re-analysis of the deposited data

Results flagged for a closer look

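After median ratio scaling, 2 genes had no overlap between the species in adults and none in nestlings, in opposite directions. *LAMA1*, a chain of basement membrane laminin, had 5.0, 4.52 and 2.58 TPM in adults 4, 5 and 6 of *N. nycticorax* and 14.9, 5.08 and 5.32 TPM in those of *E. garzetta*, a log2 fold change of -1.14 after median ratio scaling, against 0.85 in nestlings. Its models have 819 and 9228 coding bp. *PROX1*, a transcription factor of neurons, lens and lymphatic vessels, had 4.91, 3.01 and 2.98 TPM and 2.61, 1.02 and 2.43 TPM, a change of 0.66 in adults and -1.67 in nestlings, and an identifier of it also stands under another symbol. Neither passed the test of the difference between stages after adjustment (limma, unadjusted p = 0.0147 for *LAMA1* and 0.0108 for *PROX1*, adjusted p = 0.658 and 0.658), and neither was called at either stage. No single bird was tested against its group of 3.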

How the results depend on the processing

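The counts of called genes depended on the scale and on single birds. The 24 genes called (22 higher and 2 lower in *N. nycticorax*, median log2 fold change 1.36) became 9 (6 and 3, median 0.177) with TPM as deposited, 12 (6 and 6, median -0.029) after median ratio scaling, 12 (6 and 6, median 0.068) with the sum without the 10 most abundant genes and 13 (11 and 2, median 0.298) with the sum without *COL1A1*. Genes of like coding length gave 5 (4 and 1, median 0.203), and with median ratio scaling 4 (3 and 1, median -0.034). A minimum mean of 1 TPM gave 42 (40 and 2), no trend 15 (13 and 2) and all 12 birds in one fit 15 (13 and 2). Pseudocounts of 0.01 and 1 TPM gave 18 (17 and 1) and 16 (14 and 2), no filter 17 (15 and 2), and identifiers under a single symbol 23 (22 and 1). Leaving out each adult gave 4 to 139 genes, 3 to 137 higher and 1 to 2 lower, with medians from 0.81 to 1.90, and 4 to 41 genes after median ratio scaling. The genes with the same sign in nestlings were 9 of 9 with TPM as deposited, 10 of 12 after median ratio scaling and 8 of the 8 called under all scalings, beside 24 of 24, and 20 to 24 with a nestling left out. The 4 genes called in nestlings became 7 with a pseudocount of 1 TPM and 3 to 25 with a nestling left out (24 without *N. nycticorax* nestling 1, 7 without nestling 2 and 25 without nestling 3). The cause of these changes was not tested, beyond the share of *COL1A1* in the sum. No named gene was called in opposite directions under the alternatives run. *DNAJC19*, *NF2* and *NPHP4*, positive and not called on the common sum, were negative and called after median ratio scaling, with or without the block (-1.18, -1.12 and -1.14), and with the sum without the 10 most abundant genes (-1.08, -1.02 and -1.05), and *DNAJC19* also with TPM as deposited (-0.95). In the labels, same-numbered adults share only a number. On the common sum the correlation of their deviations from the species mean was 0.029, 0.23 and 0.236 for adults 4, 5 and 6. Between adults of different numbers it ran from -0.231 to 0.052. After median ratio scaling the values were 0.037, 0.286 and 0.277, against -0.29 to 0.095. The deviations of the 3 birds of a species cancel out in each gene, so these correlations are not independent of one another. Whether same-numbered birds were handled together was not tested. A fit with the replicate number as a block called 94 genes (91 and 3), and with median ratio scaling 24 (11 and 13, median -0.029). Genes under about 0.3 TPM rest on a few reads, and differences among them were not detectable at this depth.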
